A study of Mus musculus with 8 samples.

Results

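The flanks of promoters, the DNA more than 1 kb and up to 3 kb from a transcription start site (TSS), were examined for 5-methylcytosine (5mC) in neural precursor cells (NPCs) with and without knockdown of Tet3. A CpG was placed in a flank when it lay on an autosome, outside coding exons, and its nearest TSS of a protein-coding gene (GENCODE vM1 on mm9) was at that distance, and the upstream and downstream sides were kept apart in steps of 500 bp. Of 757812 CpGs in the deposited tables, 32938 (4.35%) met this rule, 14220 upstream and 18718 downstream, nearest to 5121 genes. With at least 10 reads in each of the 4 oxBS libraries, 28728 flank CpGs could be compared (12350 upstream, 16378 downstream), against 275900 in the core within 1 kb of a TSS and 210044 farther than 3 kb. In the 4 BS libraries 28303 flank CpGs met the minimum.

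The cells were made from A2lox.cre mouse embryonic stem (ES) cells, a line derived from male E14 cells, equipped with a cassette that expresses an shRNA when doxycycline is given. Cells of the shTet3 group carried an shRNA against Tet3, and cells of the shScr group a non-targeting shRNA. Both groups received doxycycline at 2 µg/ml for 5 days, so neither is an untreated culture. DNA of each of 2 replicates per group was divided between a bisulfite (BS) library and an oxidative bisulfite (oxBS) library, which gave 8 reduced representation libraries, each cut with MspI. The shRNA lines are clones of stem cells, and the labels name the shRNA by its target only. The labels do not say whether the replicates were separate cultures. The p-values of tests over libraries thus measure the spread between these samples, which may be technical. The main test of single CpGs pools the reads of replicates and does not measure that spread. RNA was not part of these tables, and neither the amount of Tet3 nor the neural identity of the cells could be checked here.

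Most mammalian promoters lie in CpG islands, short stretches rich in CpGs that are kept almost free of 5mC. On both sides of an island the CpG density drops and methylation climbs over a transition zone, often called the shore, to the high level of the rest of the genome. Methylation in this zone differs between cell types more than that of the island itself. TET enzymes oxidise 5mC to 5-hydroxymethylcytosine (5hmC), a step on the way to unmethylated cytosine, and they are known to act at the borders of islands. BS sequencing reads 5mC and 5hmC alike, whereas the oxidation step of oxBS leaves only 5mC to be read as methylated, so that BS minus oxBS estimates 5hmC.

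Stretches of 4 flanks are shown so that the sequence under the values can be seen, each chosen as the part of at most 300 bases with the most covered CpGs. They come from the pair of flanks with the largest falls of 5mC, the flank with the largest rise, and the flank with most covered CpGs in a list of neural progenitor genes. Capitals mark the covered CpGs, and all are the plus strand of mm9. The first is chr1:97561980-97562146, in an intron of St8sia4, which makes polysialic acid on the neural adhesion molecule NCAM, and holds 7 covered CpGs and no predicted island. The second is chr13:40798127-40798314, upstream of the predicted gene Gm9979, and holds 10 covered CpGs in a predicted island outside genes. The third is chr11:22871948-22872132, upstream of Zrsr1, an imprinted retrogene related to a splicing factor that lies in an intron of Commd1, and holds 13 covered CpGs in a predicted island. The fourth is chr16:30063176-30063475, upstream of Hes1, a Notch target that keeps progenitors from becoming neurons, with 13 covered CpGs in a predicted island outside genes.
St8sia4 downstream flank: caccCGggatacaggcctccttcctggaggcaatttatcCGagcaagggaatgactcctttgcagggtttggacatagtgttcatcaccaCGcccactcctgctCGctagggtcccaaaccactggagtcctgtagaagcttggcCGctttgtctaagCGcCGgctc
Gm9979 upstream flank: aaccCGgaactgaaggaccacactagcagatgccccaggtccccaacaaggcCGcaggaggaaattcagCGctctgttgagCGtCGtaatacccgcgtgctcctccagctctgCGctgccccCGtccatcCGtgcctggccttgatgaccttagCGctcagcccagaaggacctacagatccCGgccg
Zrsr1 upstream flank: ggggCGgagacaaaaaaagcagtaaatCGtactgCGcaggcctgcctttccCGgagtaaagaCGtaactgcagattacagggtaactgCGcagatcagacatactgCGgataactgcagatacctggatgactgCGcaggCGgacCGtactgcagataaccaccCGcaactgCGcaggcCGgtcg
Hes1 upstream flank: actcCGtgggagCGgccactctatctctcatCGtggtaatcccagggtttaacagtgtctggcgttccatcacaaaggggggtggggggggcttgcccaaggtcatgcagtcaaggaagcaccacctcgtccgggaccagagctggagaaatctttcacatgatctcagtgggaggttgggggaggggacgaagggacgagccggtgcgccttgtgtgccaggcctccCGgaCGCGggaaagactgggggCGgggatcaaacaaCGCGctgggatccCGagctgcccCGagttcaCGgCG

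Over the 7 CpGs of the St8sia4 stretch, mean 5mC was 59.1% and 82.5% in shScr replicates 1 and 2 and 39.4% and 32.6% in shTet3 replicates 1 and 2. Over the 10 CpGs of the Gm9979 stretch it was 67.3% and 64.5% in shScr against 36.8% and 34.0% in shTet3. In the Zrsr1 stretch the order was the opposite, with 15.1% and 13.4% in shScr against 25.1% and 23.6% in shTet3. The groups did not overlap in these 3 stretches. In the Hes1 stretch 3 libraries were at 0% and shTet3 replicate 2 at 0.366%, that is, it carried almost no methylation in either group. Read depth at a CpG of these stretches ran from 13 to 336 in the oxBS libraries.

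The libraries held 42516767 to 61865967 calls each, with a median coverage of 43 to 54 reads per listed CpG, and the median coverage of flank CpGs was 49 to 65 reads. The shScr oxBS replicates stood farther apart than the shTet3 replicates, with flank means of 33.6% and 38.7% against 28.1% and 27.4%. The BS libraries of the same DNA showed the same gap, 33.2% and 37.8% in shScr against 27.5% and 26.9% in shTet3. Values without 1 or the other shScr replicate are therefore given beside the comparisons of flank levels and the counts of called CpGs and regions.

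Flanks were intermediate in sequence between core and distant DNA. Predicted CpG islands were made of 500 bp windows with a GC of at least 55% and an observed to expected CpG ratio of at least 0.65. A CpG covered by any such window counted as inside. Islands held 46.7% of flank CpGs, against 93.0% of core and 16.0% of distant CpGs. A further 27.6% of flank CpGs lay within 2 kb of an island and 25.7% farther away. The mean number of CpGs in the surrounding 500 bp was 24.9 in flanks, 46.7 in the core and 16.1 in distant DNA. The island share dropped along both sides, from 53.5% at 1 to 1.5 kb upstream to 32.7% at 2.5 to 3 kb, and from 61.7% to 29.7% downstream. The sides differed mainly in what they overlapped. Downstream 96.0% of CpGs lay in an annotated gene, 84.1% in introns and 11.9% in noncoding exons, whereas upstream 72.8% lay between genes.

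The first comparison asked how much 5mC the flanks carried in shScr and shTet3 cells. Flank 5mC was lower after Tet3 knockdown in both replicates, and it was lower on both sides of the TSS. Averaged over the 28728 flank CpGs, shScr cells carried 36.1% ± 3.62 5mC (SD, n = 2) and shTet3 cells 27.8% ± 0.54 (SD, n = 2). The difference was -8.37 percentage points against a pooled SD of 2.59. Both shTet3 libraries lay below both shScr libraries, but 2 against 2 libraries cannot give less than 0.33 in a two-sided exact permutation test, which is the value reached here (p = 0.33, n = 2 per group). Leaving out shScr replicate 2 left -5.81 percentage points and leaving out shScr replicate 1 left -10.9. The BS libraries gave -8.31 percentage points (pooled SD 2.33). On each of the 19 autosomes the flank libraries of the groups did not overlap, with differences from -6.43 to -9.45 percentage points. The autosomes were read in the same 4 libraries, whose core and distant means did not overlap between groups either, so they are not separate tests.

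Methylation climbed with distance on both sides. In shScr it averaged 30.4%, 39.1%, 43.1% and 44.9% in the 4 upstream steps from 1 to 3 kb, and 24.05%, 36.8%, 47.4% and 50.5% in the downstream steps. In shTet3 the same steps averaged 23.4%, 29.8%, 33.3% and 34.7% upstream and 18.35%, 28.0%, 36.6% and 39.3% downstream. Downstream flanks thus began below upstream flanks and ended above them in both groups. The limits of the rule fell inside this slope. From 0.5 to 1 kb, just inside the core, shScr averaged 15.6% upstream and 9.16% downstream, and from 3 to 3.5 kb, just past the flanks, 49.5% and 55.3%.

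**Figure D1:**
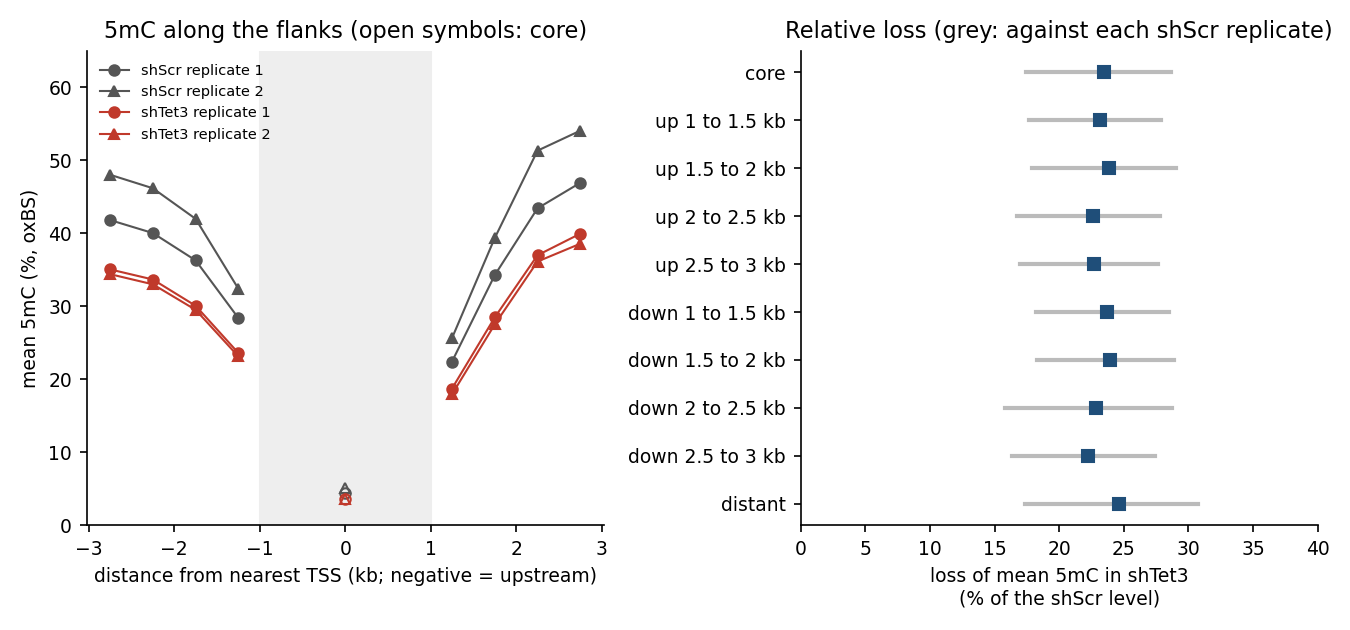
Left, mean 5mC (%, oxBS) against distance from the nearest TSS in kb for each of the 4 oxBS libraries (grey shScr, red shTet3; circles replicate 1, triangles replicate 2), with the mean of the core drawn as open symbols at 0. Right, the shortfall of mean 5mC in shTet3 as a percentage of the shScr level (blue squares, both replicates; grey bars run from the value against shScr replicate 1 to that against replicate 2); the squares lie between 22.2% and 24.6% in every bin.

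In percentage points the shortfall grew with distance, from -7.03 to -10.2 upstream and from -5.70 to -11.2 downstream. The climb from the nearest to the farthest step was 14.5 points in shScr and 11.4 in shTet3 upstream, a difference of -3.16 (pooled SD 1.10). Downstream it was 26.4 and 20.9 points, a difference of -5.53 (pooled SD 1.98). In both, the shTet3 libraries lay below both shScr libraries (exact permutation p = 0.33, n = 2). The size depended on the controls and on the CpGs taken in. Without shScr replicate 2 the differences were -2.06 upstream and -3.57 downstream, and without shScr replicate 1 they were -4.25 and -7.49. Without predicted islands they were -0.864 and -2.27, and with levels weighted by reads -5.74 and -6.30. As a share of the shScr level the shortfall hardly varied. It was 23.2% over all flanks, between 22.2% and 23.9% in each of the 8 steps, 23.4% in the core and 24.6% in distant DNA. Against shScr replicate 1 alone it was 17.3% over the flanks, and against replicate 2 alone 28.3%, so the spread between the shScr replicates exceeded the spread between distances.

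Upstream and downstream flanks differed little in their response. The difference between groups was -8.69 points upstream and -8.13 downstream. Downstream minus upstream was -2.55 and -2.74 in the shScr libraries and -1.90 and -2.26 in the shTet3 libraries, a difference of the differences of 0.564 points (pooled SD 0.207, exact permutation p = 0.33, n = 2). Without shScr replicate 2 it was 0.467 and without shScr replicate 1 0.66. Without predicted islands it was 0.208 (exact permutation p = 1, n = 2) and with coding exons 1.22. With levels weighted by reads this value was -0.046 (exact permutation p = 1, n = 2), so its direction depended on the weighting.

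Single CpGs moved from high to intermediate methylation. In shScr 38.05% of flank CpGs had a mean level under 10%, 30.02% one from 10 to 60% and 31.9% one over 60%. In shTet3 the shares were 41.0%, 42.5% and 16.5%. The median CpG was at 29.4% in shScr and 20.7% in shTet3. Both shTet3 libraries lay below both shScr libraries at 32.4% of flank CpGs, where the same held for 26.3% of all CpGs compared, and above them at 2.79%, against 2.04% of all CpGs. The share over 60% was smaller in shTet3 in each of the 8 steps, for instance 48.6% and 27.2% at 2.5 to 3 kb downstream.

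**Figure D2:**
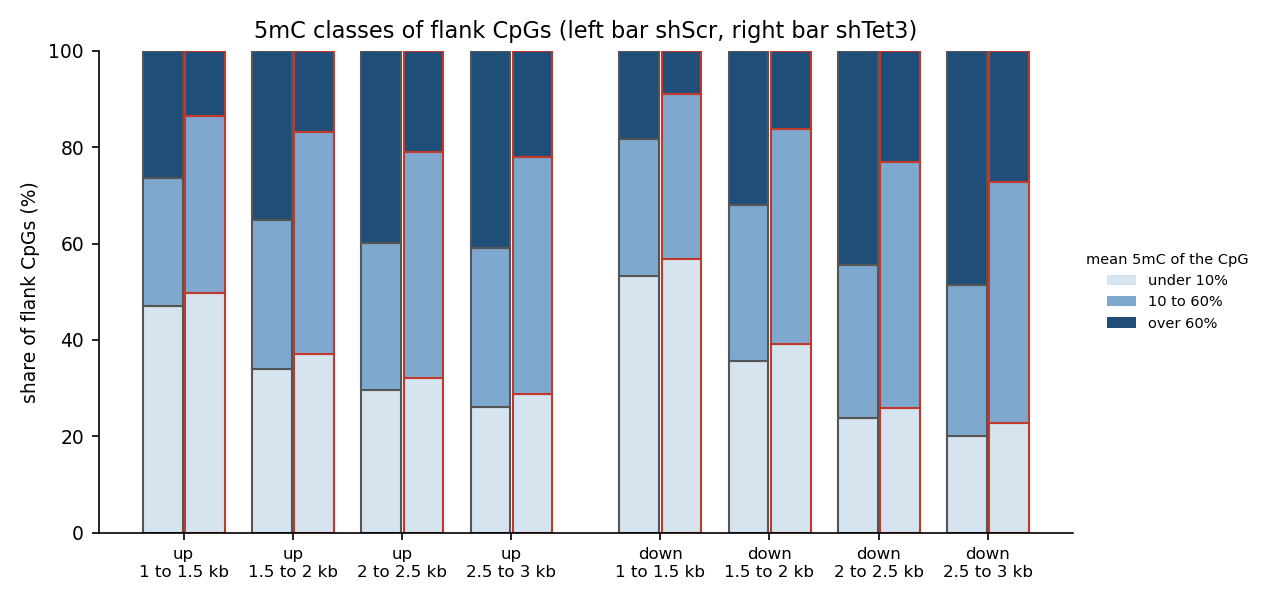
Share of flank CpGs (%) whose mean 5mC was under 10%, from 10 to 60% or over 60%, by side and 500 bp step, with shScr as the left bar and shTet3 as the right bar of each pair. In every step the over 60% class is smaller in shTet3, and the under 10% class is largest next to the core, 53.2% in shScr at 1 to 1.5 kb downstream.

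The flanks held both unmethylated island DNA and methylated DNA, and these differed in the size of the change in points but little in its share of the shScr level. Inside predicted islands flank CpGs averaged 11.4% and 10.4% in the shScr replicates against 8.59% and 8.33% in shTet3, a difference of -2.45 points. Outside islands they averaged 53.0% and 63.5% in shScr against 45.3% and 44.1% in shTet3, a difference of -13.6 points. CpGs within 2 kb of an island, the shore in the usual sense, gave -12.05 points and those farther away -15.2. As a share of the shScr level these differences were 22.5% inside islands, 24.2% in shores and 22.6% farther away. Flank CpGs in introns (-8.58 points), in noncoding exons (-7.53) and outside genes (-8.22) differed less among themselves than the shScr replicates did.

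Flank islands also carried more 5mC than core islands, 10.9% against 2.38% as the mean of shScr, and they ranked the shScr replicates in the other order. Replicate 1 minus replicate 2 of shScr was 1.02 points in flank islands in oxBS and 1.40 in BS, whereas in oxBS it was -0.2998 in core islands and -2.73 in distant islands. Outside islands replicate 1 lay 10.5 points below replicate 2 in flanks. At 20 to 29 CpGs in the surrounding 500 bp flanks averaged 26.5% and 24.8% in the shScr replicates, core CpGs 10.5% and 11.3%, and distant CpGs 46.5% and 53.2%. The shTet3 replicates were at 20.03% and 19.3% in these flanks, below both.

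**Figure D3:**
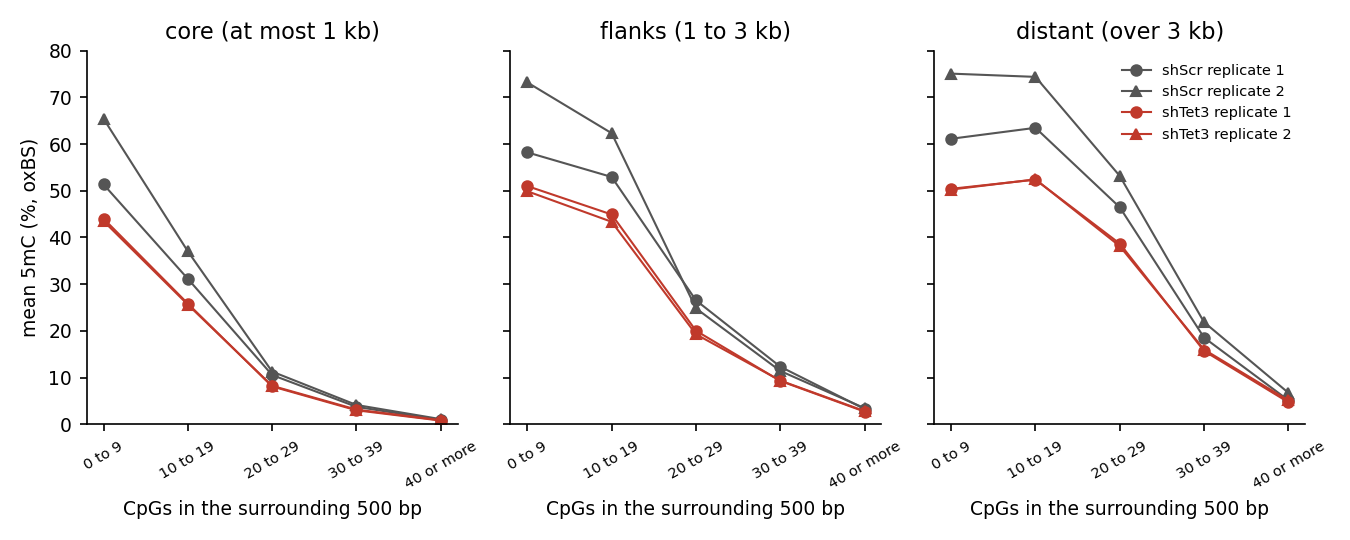
Mean 5mC (%, oxBS) against the number of CpGs in the surrounding 500 bp, for core, flank and distant CpGs, in each of the 4 oxBS libraries (grey shScr, red shTet3; circles replicate 1, triangles replicate 2). The shTet3 lines lie below the shScr lines in every panel, and in flanks the shScr lines cross between 10 to 19 and 20 to 29 CpGs, which they do not in the other panels.

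The replicate order was followed to single CpGs, as a description only, since these CpGs were chosen by the values shown. Of 26262 flank CpGs covered in all 8 libraries, 692 (2.63%) were over 20 points higher in shScr replicate 1 than in replicate 2 in both BS and oxBS, and 2225 (8.47%) were over 20 points higher in replicate 2 in both. Replicate 1 thus held 23.7% of such CpGs in flanks, against 30.9% in the core and 7.32% in distant DNA. Those higher in replicate 1 lay in islands in 52.5% of cases and those higher in replicate 2 in 6.74%. The 692 CpGs averaged 62.2% and 27.4% in the shScr oxBS replicates and 36.3% and 34.2% in shTet3, so both shTet3 libraries lay between the control libraries. The same held for the 2225 CpGs, at 33.4% and 67.9% in shScr and 37.7% and 35.2% in shTet3. Choosing CpGs by a wide gap between controls favours such an order. The 692 CpGs belonged to 235 genes, and 58 of them to 13 genes of a list of homeobox genes. Of the 28728 flank CpGs covered in oxBS, 377 were of this list. The flanks with most of the 692 CpGs were those upstream of the imprinted gene Dlk1 (15 CpGs) and of the transcription factor gene Foxd3 (12 CpGs), and downstream of the homeobox gene Pknox2 (11 CpGs). Upstream of Foxd3 these CpGs averaged 52.1% and 23.1% in shScr against 26.6% and 33.5% in shTet3. The flank with most of the 2225 CpGs was that downstream of Gm7535 (16 CpGs).

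The flanks were then set against core and distant DNA. Flank minus core was 29.2 and 33.6 points in shScr against 24.6 and 23.7 in shTet3, a difference of -7.27 (pooled SD 2.26). Flank minus distant was -21.1 and -26.5 points in shScr against -17.0 and -17.8 in shTet3, a difference of 6.38 (pooled SD 2.72). In both cases the groups did not overlap (exact permutation p = 0.33, n = 2). Without shScr replicate 2 the differences were -5.05 against the core and 3.69 against distant DNA, and without shScr replicate 1 they were -9.48 and 9.08. Without predicted islands they were -4.73 and 3.25. Because these classes start from different levels, CpGs were also grouped by their shScr BS level, which comes from other libraries of the same DNA. The deviations of shScr BS and oxBS libraries went together (correlation 0.597). Sorting by shScr alone can thus widen the difference in high groups and narrow it in low ones. From 20 to 40% the flank difference was -8.26 points, against -6.72 in the core and -9.97 in distant DNA. From 60 to 80% it was -17.9, against -16.3 and -19.7. Among 5 level groups and 2 comparisons, none could give an exact permutation p under 0.33 (n = 2), and in 6 of the 10 it was 0.67 or 1. The flank difference was largest at intermediate to high levels and was -0.94 points below 20% and -14.2 above 80%.

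Differentially methylated positions (DMPs) were next counted with the thresholds of the study (q below 0.01, and levels of the pooled reads more than 10 percentage points apart). In oxBS libraries 4638 of 28728 flank CpGs (16.1%, 95% Wilson interval 15.7 to 16.6) were lower in shTet3, where 13.9% of all CpGs tested were, and 31 (0.108%) were higher, where 0.0814% were. The lower DMPs had a median difference of -23.9 points and lay near 2285 genes. At 90.0% of them both shTet3 libraries lay below both shScr libraries, close to the 91.9% of all lower DMPs. In BS libraries 4667 flank CpGs were lower (background 13.8%) and 43 higher (background 0.0621%). This test pools the reads of replicates and carries no term for their spread. With a term for the spread between replicates in the test, 0 of all 662455 CpGs passed in either direction. With 4 libraries that test has 2 residual degrees of freedom, so a small p is hard to reach whatever the spread. Its 0 thus says nothing about the size of the spread or about the flanks, where 651 CpGs were lower and 3 higher at an unadjusted p under 0.05. Without shScr replicate 2 the lower flank DMPs numbered 2393 (8.33%, background 5.9%) and the higher 211 (0.734%, background 0.444%). Without shScr replicate 1 they numbered 5956 (20.7%, background 17.5%) and 119 (0.414%, background 0.128%). Without shTet3 replicate 1 they numbered 3089 (background 8.75%) and 32 (background 0.0755%), and without shTet3 replicate 2 they numbered 3202 (background 9.97%) and 63 (background 0.128%).

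The share of lower DMPs grew with distance, from 13.8% to 20.1% upstream and from 10.6% to 21.9% downstream. Inside predicted islands 3.98% of flank CpGs were lower DMPs and outside them 26.8%. Among CpGs with over 10% 5mC as the mean of the 4 oxBS libraries, the shares were 26.3% in flanks, 17.4% in the core and 34.3% in distant DNA. Lower DMPs of the flanks had a median shScr level of 74.0% and 13.4 CpGs in the surrounding 500 bp, against 29.4% and 24.9 for all flank CpGs compared. Of 4414 lower DMPs that the BS libraries also covered, 95.7% were lower there too, with a median difference of -16.8 points, and 2044 were called lower there. Of 21819 flank CpGs that were not called in oxBS, 62.2% were lower in BS, with a median difference of -2.07 points. BS and oxBS libraries of one replicate come from the same DNA, so the second set repeats the chemistry and not the culture.

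The 31 higher CpGs lay near 21 genes, and 74.2% of them lay in predicted islands. Their median level in shScr was 8.26%. Of the 29 covered in BS, 21 were higher in shTet3 there as well. Imprinted genes, which keep 5mC on the copy from only 1 parent, held 11 of them, 6 downstream of Impact and 5 upstream of Zrsr1. The list of imprinted genes held 139 of the 28728 flank CpGs covered, and 12 of the 139 were lower DMPs. Neighbouring CpGs share reads, so the 11 are not separate observations. The 5 Zrsr1 CpGs lay together at chr11:22872088-22872127, the right end of the stretch printed above, and averaged 8.10% and 9.53% in shScr against 22.5% and 25.6% in shTet3. In the BS libraries the same 5 CpGs averaged 16.0% and 11.01% in shScr against 28.1% and 20.6% in shTet3, again without overlap. The 6 Impact CpGs averaged 12.5% and 3.79% in shScr against 30.2% and 15.4% in shTet3 (oxBS), and 11.9% and 10.6% against 13.7% and 16.2% (BS). Angpt2, which encodes an angiopoietin, held 2 higher CpGs and the other 18 genes 1 each.

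To compare whole flanks, the CpGs of a gene on 1 side were averaged where at least 5 were covered. This gave 1736 gene flanks (746 upstream, 990 downstream) of 1601 genes with 20758 CpGs. Both shTet3 libraries lay below both shScr libraries in 894 flanks (51.5%), above them in 36, and the libraries overlapped in 806. Over all 29417 regions of core, flank, distant and exonic CpGs 53.5% lay below and 3.34% above. The median difference was -7.13 percentage points in flanks and -5.21 over all regions. A moderated test over all regions (limma, Benjamini-Hochberg adjusted p below 0.05) called 0 flanks and 0 regions of any kind, with 256 flanks lower and 4 higher at an unadjusted p under 0.05 and a smallest adjusted p of 0.328. As no region of any kind passed, this count of 0 does not set the flanks apart. The fit also missed changes planted in test data (0 of 200 called). Restricted to regions with a mean level from 5 to 95%, an alternative added after the data were seen, it called 170 of 200. The planted data held no spread between replicates beyond the sampling of reads. They thus do not show how either fit performs on these libraries. On the libraries the restricted fit called 9 of 1308 flanks lower and 0 higher, against 0.414% and 0.00545% of all 18359 regions. Without shScr replicate 1 it called 743 of 1307 flanks lower (56.8%) and 17 higher (1.30%), where 69.3% and 0.321% of all 18361 regions were called. Without any other replicate it called 0 flanks, beside lower calls at 0.0108% of regions without shTet3 replicate 1, 0.0271% without shTet3 replicate 2 and none without shScr replicate 2.

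The 9 flanks were those of Fcho2, Ap3m2, Parm1, Gm17677, Cadm3, Sp9, Caln1, Lrrc39 and Piwil4. All but that of Sp9 (25 CpGs) rested on 5 to 9 covered CpGs, and that of Fcho2, with 5, held 0 DMPs. Upstream of Ap3m2, which encodes a subunit of an adaptor for vesicle traffic, 5mC was 39.5% and 61.6% in shScr against 18.4% and 17.4% in shTet3. Downstream of Cadm3, which encodes a neural cell adhesion molecule, it was 39.97% and 24.7% in shScr against 12.4% and 12.1% in shTet3. Neither had libraries that overlapped. Downstream of Piwil4, a partner of the small RNAs that silence transposons in the male germ line, it was 66.4% and 73.6% in shScr against 42.9% and 25.3% in shTet3. BS libraries covered CpGs in 7 of the 9 flanks, not in those of Fcho2 and Ap3m2. There the difference ran from -0.322 points downstream of Sp9 to -24.5 downstream of Cadm3. The Sp9 value in BS was over 13 CpGs, against 25 in oxBS.

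Genes with an unmethylated core showed how far the flank can part from the promoter. Cores and flanks were sorted by the mean of all 4 oxBS libraries, so that neither group alone decided the class. A core under 10% 5mC stood beside 973 of the flanks, and of these flanks 397 (40.8%) were also under 10%, 407 (41.8%) were from 10 to 60% and 169 (17.4%) were over 60%. The 169 methylated flanks had a median of 78.2% in shScr and 64.4% in shTet3, with 130 below, 0 above and the others overlapping. Their cores had a median of 0.783% in shScr and 0.597% in shTet3. The 407 intermediate flanks had a median of 35.8% in shScr and 26.7% in shTet3, with 220 below and 1 above. Among the 397 flanks under 10%, 84 lay below and 22 above. As a share these were 76.9%, 54.1% and 21.2% below, beside 51.5% of all gene flanks. Of 135 genes measured on both sides, 41 had both flanks below. No share for pairs of other regions was computed, and 51.5% of single flanks lay below, so this count does not set these genes apart.

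**Figure D4:**
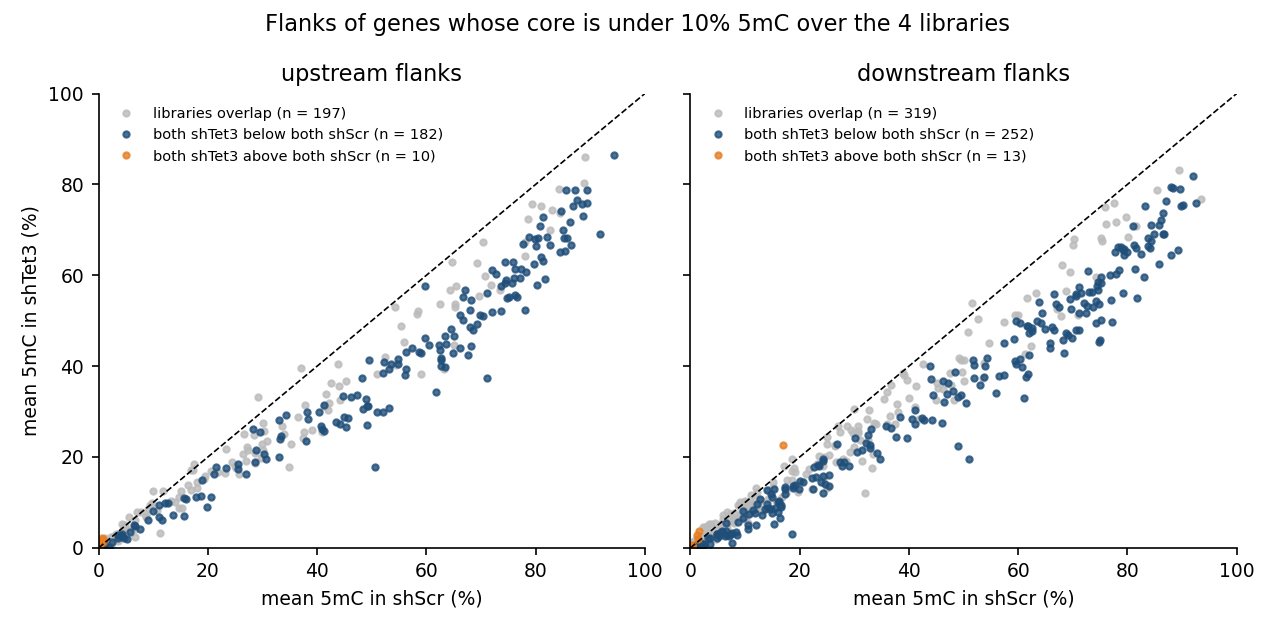
Mean 5mC (%, oxBS) of a gene flank in shTet3 against shScr, for the 389 upstream and 584 downstream flanks of genes whose core was under 10% as the mean of the 4 libraries; each point is 1 gene flank, blue where both shTet3 libraries lay below both shScr libraries, orange where they lay above, grey where they overlapped, and the dashed line marks equal levels. Most points lie under the line (338 upstream, 491 downstream), and the orange points lie at low levels.

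The flanks with the largest differences were then named, among the 722 with at least 10 covered CpGs whose groups did not overlap (298 below, 25 above). As they were chosen by these values, the values are a description. The largest fall was downstream of St8sia4, at 62.5% and 72.1% in shScr against 37.8% and 32.6% in shTet3 over 14 CpGs (difference -32.1 points, limma adjusted p = 0.328). Upstream of Gm9979 the 10 CpGs printed above gave -30.5 points. Downstream of Uggt1, which encodes a sensor of glycoprotein folding, 5mC was 68.2% and 81.2% in shScr against 48.0% and 42.8% in shTet3, beside a core at 1.22% and 0.662%. Ptp4a3, which encodes a phosphatase, had a downstream flank with a difference of -27.5 points, and Tas1r2, which encodes a sweet taste receptor subunit, an upstream flank with -25.9.

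The last 3 of the 8 flanks were those of En1, Irx4 and Dtx1. Upstream of En1, a homeobox gene of the border between midbrain and hindbrain, 5mC was 79.2% and 86.0% in shScr against 60.5% and 53.8% in shTet3 (10 CpGs). Downstream of Irx4, an Iroquois homeobox gene, it was 70.9% and 70.1% in shScr against 47.3% and 43.4% in shTet3 (14 CpGs, 71.4% of them in a predicted island). Upstream of Dtx1, which encodes a regulator of Notch, it was 52.3% and 75.3% in shScr against 38.8% and 41.2% in shTet3 (11 CpGs). In BS libraries all 8 differences were negative, from -17.7 points at St8sia4 to -26.2 at Irx4.

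The rises were smaller and sat at low levels. The Zrsr1 flank differed by 10.1 points and the downstream flank of Impact, which encodes a regulator of the translation control kinase GCN2, by 9.21, from 10.2% and 5.73% in shScr to 18.9% and 15.4% in shTet3 over 19 CpGs. The cores of both were higher in shTet3 as well, at 16.8% and 23.2% for Zrsr1 and 6.52% and 15.1% for Impact as means of shScr and shTet3. Downstream of Hmga1, which encodes a chromatin architectural protein, the difference was 5.75 points, and upstream of the Hox gene Hoxb3 it was 4.78. The flanks of Stc2, Tesc, Vldlr and Six3 (upstream) differed by 0.831 to 2.14 points at levels under 10%. In BS libraries the difference was positive for Zrsr1 (13.2 points), Hmga1 (5.70), Impact (3.68), Hoxb3 (2.37), Six3 (0.925) and Tesc (0.603), and it was -0.851 for Stc2 and -0.020 for Vldlr.

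**Figure D5:**
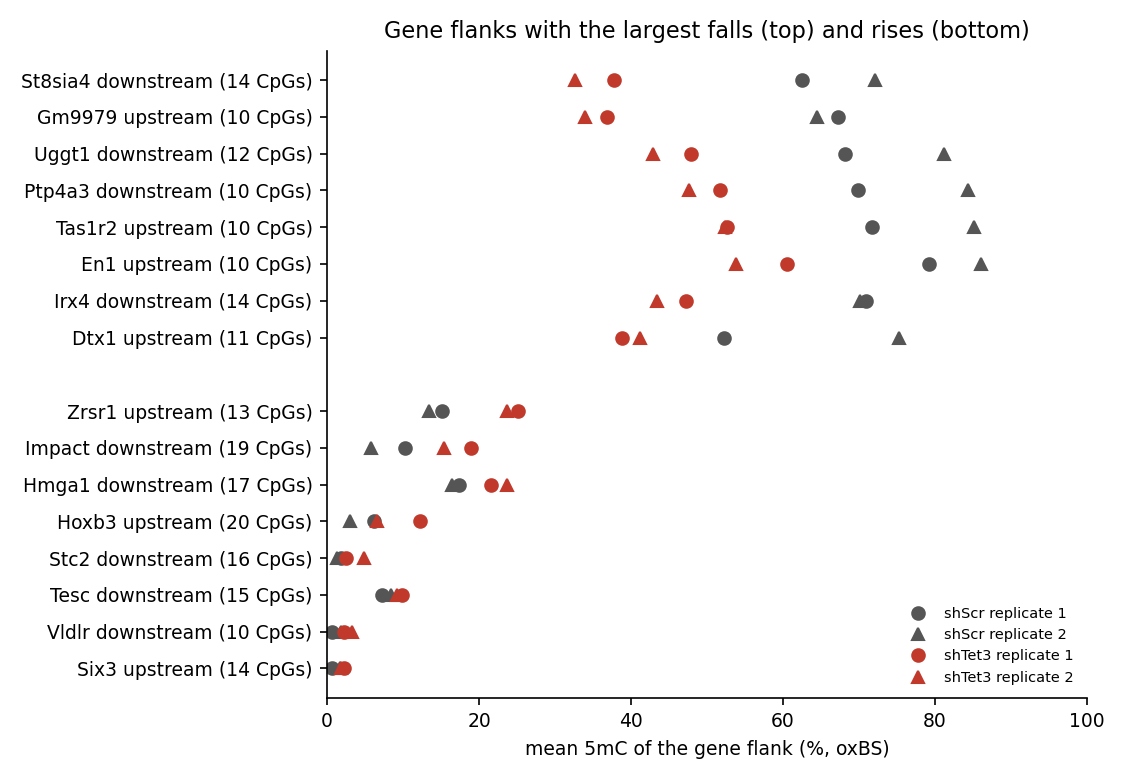
Mean 5mC (%, oxBS) of the 8 gene flanks with the largest falls (top) and the 8 with the largest rises (bottom) among those whose groups did not overlap, one row per flank with its number of covered CpGs; grey shScr, red shTet3, circles replicate 1, triangles replicate 2. The falls start above 50% in both shScr libraries, and all rises lie under 30% in all 4 libraries.

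Lists of genes tied to the identity of these cells were counted over their measured flanks, beside 53.5% of all regions below and 3.34% above. Of 11 flanks of neural progenitor genes 5 lay below, 0 above and 6 overlapped, with a median difference of -4.48 points. The Hes1 flank, its 29 CpGs all in a predicted island, stayed at 0.070% to 0.490% in all 4 libraries. Upstream of Pax6, the master regulator of radial glia, 22 CpGs around several start sites averaged 38.3% and 29.5% in shScr against 28.7% and 20.6% in shTet3, so the groups were apart by less than 1 point. Downstream of the forebrain homeobox gene Emx2, 16 CpGs averaged 19.5% and 15.2% in shScr against 11.7% and 14.1% in shTet3.

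Of 7 flanks of neuronal differentiation genes 3 lay below and 4 overlapped, with a median of -5.48 points. Upstream of Neurod1, which drives neurons to mature, 21 CpGs averaged 59.1% and 55.03% in shScr against 37.9% and 36.0% in shTet3, and 12 of them were lower DMPs. Over the whole list 21 of 133 covered flank CpGs (15.8%) were lower DMPs, near the 16.1% of all flank CpGs. Downstream of Dlx2, a homeobox gene of inhibitory neurons, 38 CpGs averaged 35.9% and 25.4% in shScr against 26.9% and 23.5% in shTet3, and the libraries overlapped. They also overlapped downstream of Elavl3, which encodes a neuronal RNA-binding protein, at 26.3% and 15.8% in shScr against 17.3% and 15.3% in shTet3.

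Of 6 flanks of pluripotency genes 4 lay below and 2 overlapped, with a median of -7.28 points. Downstream of Klf2, which helps to hold naive pluripotency, 11 CpGs averaged 43.4% and 55.8% in shScr against 44.0% and 38.8% in shTet3, so shTet3 replicate 1 reached shScr replicate 1. Upstream of Tbx3, also a factor of naive ES cells, 9 CpGs averaged 31.4% and 37.3% in shScr against 28.3% and 30.003% in shTet3. Downstream of Lin28a, which blocks the let-7 miRNAs, the values were 8.20% and 4.62% in shScr against 6.67% and 10.4% in shTet3, with overlap.

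Homeobox patterning genes gave 22 flanks of 14 genes, of which 8 lay below, 1 above and 13 overlapped, with a median of -7.50 points. Over all 377 covered CpGs of the list, 5mC averaged 36.1% and 25.3% in the shScr replicates against 23.1% and 21.9% in shTet3, so shScr replicate 2 lay near the shTet3 libraries. The BS libraries gave the same order, 36.5%, 26.1%, 23.6% and 22.4%. In oxBS, shScr replicate 1 was also above replicate 2 over the neural progenitor list (29.1% and 22.8%, shTet3 20.5% and 18.9%). So it was over the neuronal differentiation list (39.1% and 31.4%, shTet3 27.5% and 24.2%) and the imprinted list (35.4% and 28.6%, shTet3 27.1% and 28.0%). Replicate 2 was the higher over the pluripotency, housekeeping, and 5mC writer and eraser lists. Upstream of Msx1 (44 CpGs) and downstream of Six3 (34 CpGs), flanks with many CpGs, the libraries of the groups overlapped. Msx1, a gene of limb and facial patterning, averaged 23.1% and 13.1% in shScr against 14.7% and 11.9% in shTet3. Six3, a gene of the anterior forebrain and eye, averaged 19.7% and 12.7% in shScr against 11.7% and 12.7% in shTet3 on this side.

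Of 8 flanks of imprinted genes 3 lay below, 2 above and 3 overlapped, with a median of -7.77 points. The 2 above were those of Zrsr1 and Impact. Downstream of Cdkn1c, which encodes an inhibitor of the cell cycle and is expressed from the maternal copy, 42 CpGs averaged 23.3% and 23.5% in shScr against 17.5% and 18.9% in shTet3, but the BS difference was only -0.590 points against -5.23 in oxBS. Upstream of Dlk1, 18 CpGs averaged 64.0% and 22.9% in the shScr replicates against 28.5% and 37.9% in shTet3, the widest gap between controls among the flanks named. Among writers and erasers of 5mC only the downstream flank of Dnmt3a, the de novo methyltransferase gene, was measured, at 10.7% and 13.7% in shScr against 9.38% and 15.3% in shTet3 over 8 CpGs. No flank of a housekeeping gene had 5 covered CpGs, and the 8 covered CpGs of 5 such genes averaged 55.6% and 81.9% in shScr against 40.05% and 50.3% in shTet3.

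The last comparison asked whether the flanks carried 5hmC that BS libraries read and oxBS libraries do not. Mean BS minus oxBS was 0.784 and 0.515 points in the shScr replicates against 0.453 and 0.565 in shTet3, so the groups overlapped. The values of the replicates hardly went together across CpGs (Pearson r = 0.020 over 26984 CpGs in shScr, a description across CpGs of the same libraries). Single CpGs with BS above oxBS numbered 120 in shScr (background 0.33%) and 13 in shTet3 (background 0.0239%), and those with BS below oxBS, which 5hmC cannot give, numbered 56 (0.17%) and 5 (0.0141%). Without replicate 1 the shScr counts were 2 above and 2 below, and without replicate 2 they were 257 and 158. The shTet3 counts were 0 and 0 without replicate 1 and 43 and 25 without replicate 2. With all replicates, calls above thus outnumbered calls below in both groups. Calls below, which measure error, were 46.7% as many as calls above in shScr flanks (51.6% over all CpGs). In shTet3 flanks they were 38.5% as many (59.1% over all CpGs). Which single flank CpGs carried 5hmC could therefore not be told from error at this depth.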

How the data were processed

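BS and oxBS reduced representation libraries of shScr and shTet3 NPCs (2 replicates each) were analysed from 8 tables, 1 per library, that the authors deposited. Per the labels, reads were trimmed with Trim Galore, aligned to mm9 with Bismark and called with methylKit, whose versions are not given in the sources used here. Each deposited table gives for a CpG the read count (coverage) and the percent of reads called C or T, and lists 757812 CpGs with at least 5 reads; all were CG of mm9 at the listed position. Methylated calls were recovered as coverage times percent.

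The members and the gene lists were chosen with earlier results of these data known. CpGs were assigned to the nearest protein-coding TSS of GENCODE vM1 and kept with at least 10 reads in each library compared. Levels are unweighted means over CpGs, tested over libraries with two-sided exact permutation tests. Single CpGs were tested on all chromosomes with a logistic regression of methylated and unmethylated calls (likelihood ratio test, Benjamini-Hochberg), written in Python 3.11.15 with NumPy 2.4.6, pandas 2.3.3 and SciPy 1.17.1. Gene regions of at least 5 CpGs were tested with limma 3.58.1 (R 4.3.3, trend and robust) on log2((b + 1)/(101 - b)), with b the mean percent 5mC. The named flanks were the 8 largest falls and 8 largest rises among flanks of at least 10 CpGs whose groups did not overlap, and the 3 flanks with most CpGs of each of 7 lists. One of the named flanks is not reported here. Both tests were run on simulated data first, in which replicates differed only by the sampling of reads. Wilson intervals (95%) cover the counting error over CpGs only. They treat CpGs as independent, though neighbours share reads, and leave out the spread between replicates. The reads carry no molecular identifiers. The replicate numbers pair BS with oxBS libraries, which share DNA (correlation of deviations 0.597 in shScr and 0.206 in shTet3). They do not pair shScr with shTet3 (-0.022 in oxBS, -0.016 in BS).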

Additional observations from a re-analysis of the deposited data

How the results depend on the processing

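The level differences kept their direction under 153 of 154 alternatives (coverage minimum of 5 or 20, weighting by reads, TSSs of all transcripts, coding exons, islands left out, replicates left out); the exception was the difference between downstream and upstream flanks, which was -0.046 points with read weighting. Leaving out 1 replicate moved the flank difference between -5.81 and -10.9 points, lowest in size without shScr replicate 2. With a test that holds the spread between replicates, the counts of single CpGs were 0 in both directions for oxBS, BS, and BS against oxBS in both groups. That test has 2 residual degrees of freedom with 4 libraries, so these counts do not measure the spread. Leaving out 1 replicate gave 2393 to 5956 lower and 32 to 211 higher oxBS DMPs, and 2062 to 5802 lower and 34 to 163 higher BS DMPs; the lowest counts of lower DMPs came without shScr replicate 2 (2393 and 2062) and also fell by over 1.5 times without shTet3 replicate 1 (3089 and 3039) and, in BS, without shTet3 replicate 2 (2967). Higher DMPs rose over 1.5 times without shScr replicate 1 (119 and 128), without shScr replicate 2 (211 and 163) and, in oxBS, without shTet3 replicate 2 (63).

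For BS against oxBS, leaving out a replicate gave 2 to 257 CpGs above and 2 to 158 below in shScr, where the low counts came without replicate 1, and 0 to 43 above and 0 to 25 below in shTet3. Fisher's exact test gave 78 above in shScr, and 8 above and 2 below in shTet3; a coverage minimum of 20 gave 2 below in shTet3. The moderated test of gene flanks called 0 under each other setting without the filter on levels. With the filter on levels, added after the data were seen, it called 9 lower with oxBS and 9 with BS libraries, and 0 to 743 lower and 0 to 17 higher with 1 replicate left out, the high counts without shScr replicate 1. The cause of these changes was not tested beyond the fewer reads and samples of each alternative.

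When the replicate number entered as a block, the flank level difference stayed -8.37 points, oxBS DMPs numbered 4774 lower and 30 higher, BS DMPs 4739 and 40, and BS against oxBS gave 121 above and 54 below in shScr and 14 and 4 in shTet3. With the block the filtered gene test called 29 flanks lower and the unfiltered test 0. The shScr and shTet3 libraries share a number only (correlation of deviations -0.022). With 2 libraries per group no level comparison can reach p below 0.33, and a median of 49 to 65 reads per flank CpG limits single CpGs.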
